A study of Mus musculus with 8 samples.

Results

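The Slc38a transporter locus on mouse chromosome 15 holds 3 genes for neutral amino acid transporters, Slc38a1, Slc38a2 and Slc38a4, and 3 long non-coding RNA (lncRNA) genes next to them, Gm32840, Gm32885 and Gm33149. These 6 genes were taken by symbol from the 22810 genes of the deposited allele-specific counts. The counts came from 8 single blastocysts on embryonic day 3.5, collected after natural mating and lysed without culture. The forward cross gave 3 embryos (embryos 1, 2 and 3), with a C57BL/6 (B6) mother and a Mus musculus castaneus (cast) father. The reverse cross gave 5 embryos (embryos 1, 2, 3, 5 and 7), with a cast mother and a B6 father. All embryos were therefore untreated F1 hybrids in which a maternal read is a B6 read in the forward cross and a cast read in the reverse cross. The number of litters behind them is not given in the sources used here, so the p-values below measure the spread between single embryos.

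System A transporters of the Slc38 family carry small neutral amino acids such as alanine and glutamine into cells together with sodium. Slc38a4 (SNAT4) is a known imprinted gene that is read from the paternal allele and is best known for its role in the placenta, whereas Slc38a1 (SNAT1) and Slc38a2 (SNAT2) are more widely expressed carriers of the same kind. The study counts Slc38a1, too, among the imprinted genes published before. It found paternal expression of Slc38a1 and Slc38a4 again by Sanger sequencing of embryos from separate crosses. Genomic imprinting means that an allele is read or kept silent according to the parent it came from, and reciprocal crosses separate this from a difference between the strains.

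In each embryo only reads that cover a single nucleotide polymorphism (SNP) between B6 and cast were counted, so the number of reads of a gene depends on how many such positions its transcript has. Levels of different genes were for this reason not compared with each other. The embryos had 1060063 to 1632695 SNP-spanning reads, of which 57.4% to 58.3% were B6 reads. Trophectoderm markers (8 of 8 genes with at least 10 reads) summed to 3731 to 5274 CPM (counts scaled to a library of 1000000 reads) in 7 embryos but to 848 in reverse embryo 1. Inner cell mass markers summed to 462 to 1002 CPM. In a whole embryo, fewer cells of a type and less RNA per cell cannot be told apart. The 11 macrophage markers, genes of a maternal cell type that could be carried along, summed to 44.6 to 880 CPM in the forward embryos and to 3.87 to 7.54 CPM in the reverse embryos. In forward embryo 1, 1440 of their reads were maternal and 3 paternal, and over all embryos 9 of the 11 had at least 10 reads and none was at 0. Cumulus cell markers (4 in the table) summed to at most 7.32 CPM, and markers of the oviduct and uterine epithelium, of which Epcam is also an embryonic gene, to 734 to 914 CPM in the forward and 912 to 1554 CPM in the reverse embryos. Of these epithelial marker reads, 247 to 476 were paternal and 576 to 765 maternal in each forward embryo. In each reverse embryo 733 to 1213 were paternal and 349 to 643 maternal. Oocyte genes summed to 133 to 432 CPM, with maternal and paternal reads in similar numbers (153 and 140 in forward embryo 1).

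The 6 genes span chromosome 15 from 96571418 to 97173903 (mm10). Slc38a1 (ENSMUSG00000023169.15) lies at 96571418 to 96642913, Slc38a2 (ENSMUSG00000022462.7) at 96687392 to 96699730 and Slc38a4 (ENSMUSG00000022464.14) at 96994820 to 97055956, all on the minus strand. The lincRNA Gm32885 (ENSMUSG00000116295.1) follows at 97157029 to 97167244, also on the minus strand. Gm32840 (97044140 to 97106932) and Gm33149 (97162550 to 97173903), placed from RefSeq, lie on the plus strand. Gm32840 runs antisense over the first 11.8 kb of Slc38a4 and over 240 of its 4261 exonic bases. Gm33149 runs antisense over 4.70 kb of Gm32885 and over 410 of its 1222 exonic bases. The sources used here do not say if reads were counted by strand, and SMART-Seq2 libraries do not mark it, so reads inside these overlaps cannot be told apart between the genes of either pair.

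A promoter window of 300 bases (250 before and 50 after the start, RefSeq, GRCm38.p6) was found for 5 of the 6 genes, with 3 starts for Slc38a4 and 7 windows in all. The windows shown are those of Slc38a4 and Gm32885, whose paternal bias had the smallest p-values, and that of Slc38a2, whose bias was the smallest. CpG dinucleotides, the sites of DNA methylation in mammals, are in capitals. For both transporter genes the 250 bases before the start are shown (chr15:97055957-97056206 for the outermost start of Slc38a4 and chr15:96699729-96699978 for Slc38a2), and for the non-coding Gm32885 all 300 bases (chr15:97167195-97167494), each 5′ to 3′ on the minus strand.
Slc38a4: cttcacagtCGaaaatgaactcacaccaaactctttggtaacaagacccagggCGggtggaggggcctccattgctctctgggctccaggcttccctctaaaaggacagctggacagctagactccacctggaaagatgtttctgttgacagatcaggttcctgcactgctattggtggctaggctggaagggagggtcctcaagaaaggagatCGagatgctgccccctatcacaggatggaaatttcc
Gm32885: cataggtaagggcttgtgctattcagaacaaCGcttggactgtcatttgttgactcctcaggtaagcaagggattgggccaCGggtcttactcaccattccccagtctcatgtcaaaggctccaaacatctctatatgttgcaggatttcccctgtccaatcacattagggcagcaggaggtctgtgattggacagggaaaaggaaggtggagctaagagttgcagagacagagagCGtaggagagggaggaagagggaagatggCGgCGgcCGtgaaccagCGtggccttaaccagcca
Slc38a2: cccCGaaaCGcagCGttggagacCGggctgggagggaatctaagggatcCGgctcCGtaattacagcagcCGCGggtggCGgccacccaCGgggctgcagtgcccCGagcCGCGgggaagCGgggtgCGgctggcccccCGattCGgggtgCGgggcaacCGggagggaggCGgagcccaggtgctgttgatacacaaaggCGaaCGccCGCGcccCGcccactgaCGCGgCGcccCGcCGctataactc
The 300-base window of Slc38a2 held 41 CpG dinucleotides, more than 96.5% of the 32851 promoter windows in the table. The other 6 windows held 5 to 9, around the median of 7 over all windows. The GC content was 73.0% at Slc38a2, against 53.0% at this start of Slc38a4, 52.3% at Gm32885 and a median of 52.7% over all windows. Of 5 motifs searched on both strands of the 300-base windows, each counted on its own even where matches share letters, CCAAT was found in 5 of the 7 windows (37.4% of all windows). Among these were 3 matches at Gm32885 and 2 at the outermost Slc38a4 start, where the last 50 bases of the window are not printed above. GGGCGG was found in 3 windows (35.7% of all windows), TATAAA in 1 (13.6%) and AAGATGG in 1 (6.34%), which was that of Gm32885. TGCCGC was found in none of the 7 (11.6% of all windows). A match is a description of these letters and does not show that a factor binds.

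Reads of these genes came almost only from the paternal allele, in both crosses. All 6 genes had more paternal than maternal reads in all 8 embryos, a pattern shown by 1.19% of the 12565 autosomal genes tested. In edgeR's quasi-likelihood test of paternal against maternal alleles (Benjamini-Hochberg adjustment over all genes tested, called at an adjusted p of at most 0.1), 5 of the 6 genes were called paternal, against 1.11% of all genes tested. When the fit also had a term for each embryo, so that both alleles of an embryo were paired, all 6 were called, and the share over all genes was 2.08%. The median log2 fold change was 6.16 for the 6 genes and -0.01 over all genes tested.

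Slc38a4 had 196, 165 and 143 paternal reads in forward embryos 1, 2 and 3, beside 1, 1 and 0 maternal reads. Reverse embryos 1, 2, 3, 5 and 7 had 307, 311, 129, 156 and 121 paternal reads, and the only maternal read among them was in reverse embryo 1. The lowest paternal and the highest maternal count were thus far apart in both crosses. Summed over the embryos, 3 maternal reads stood against 1528 paternal reads, a ratio of 509 (95% Clopper-Pearson interval 174 to 2473, which like all intervals here covers counting error only). Forward embryos had a mean paternal share of 99.6% ± 0.324 (SD, n = 3), and reverse embryos 99.9% ± 0.145 (SD, n = 5). The fitted log2 fold change of 8.48 (SE 0.44, edgeR adjusted p = 1.44e-11) was rank 1 of the 12565 genes by p-value and by size.

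Gm32885, a lincRNA gene without a known function, had the most reads of the 6 genes. Its paternal reads were 380, 228 and 316 in the forward embryos and 157, 228, 179, 225 and 150 in the reverse embryos. Its maternal reads were 3, 2 and 1 in the forward embryos, 0 in reverse embryos 1, 2, 3 and 5, and 1 in reverse embryo 7. Maternal reads were thus present in each forward embryo and in 1 of 5 reverse embryos, but at under 1% of the gene's reads everywhere. The ratio of summed paternal to maternal reads was 266 (interval 129 to 663). Its log2 fold change was 7.89 (SE 0.48, edgeR adjusted p = 2.32e-10), rank 2 of all genes tested.

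The antisense lncRNA Gm33149 had 60, 29 and 35 paternal reads in the forward embryos beside 3, 2 and 0 maternal reads. Reverse embryos had 41, 58, 34, 57 and 27 paternal reads and no maternal read, 0 of 217, which allows a maternal share of up to 1.69% (Clopper-Pearson interval). Its maternal reads therefore all came from forward embryos 1 and 2, which also held 5 of the 7 maternal reads of the overlapping Gm32885. The log2 fold change was 5.77 (SE 0.58, edgeR adjusted p = 1.07e-06) and 6.37 without forward embryo 1. Gm32840, antisense to the start of Slc38a4, had 47, 37 and 22 paternal reads in the forward and 42, 60, 7, 40 and 27 in the reverse embryos. Its only maternal reads were 1 in forward embryo 1 and 1 in reverse embryo 5, a ratio of 141 paternal to maternal reads (interval 38.7 to 1170). The log2 fold change was 6.54 (SE 0.63, edgeR adjusted p = 8.63e-07).

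Slc38a1, the farthest of the genes from Slc38a4 with 413 kb between their starts, had 43, 54 and 35 paternal reads in the forward embryos. Reverse embryos 1, 2, 3, 5 and 7 had 90, 101, 33, 66 and 36 paternal reads. Of its 8 maternal reads, 7 were in forward embryo 1 and 1 in reverse embryo 5, while the other 6 embryos had none. The paternal share was 86.0% in forward embryo 1 and at least 98.5% in every other embryo. The log2 fold change was 5.60 (SE 0.60, edgeR adjusted p = 3.03e-06) and rose to 7.68 without forward embryo 1, where it was still called (adjusted p = 2.46e-07).

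Slc38a2, the most thinly covered gene, had 10, 1 and 9 paternal reads in the forward embryos and 2, 18, 50, 30 and 8 in the reverse embryos. Its maternal reads were 1 in forward embryo 1 and 7 in reverse embryo 2, where the paternal share was 72.0%, and 0 in the other 6 embryos. The paternal share of all its reads was 94.1% (Clopper-Pearson interval 88.7% to 97.4%). Its log2 fold change of 3.58 (SE 1.02) did not pass the test (edgeR adjusted p = 0.119, unadjusted p = 0.0019). It passed when alleles were paired within embryos (log2 fold change 4.20, adjusted p = 0.00795), as it did with DESeq2 (adjusted p = 0.0145) and without reverse embryo 2 (5.76, adjusted p = 0.00268), while the adjusted p over all alternatives ran from 0.00233 to 0.540. The plot of reads per embryo shows the gap between the alleles for each gene.

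**Figure D1:**
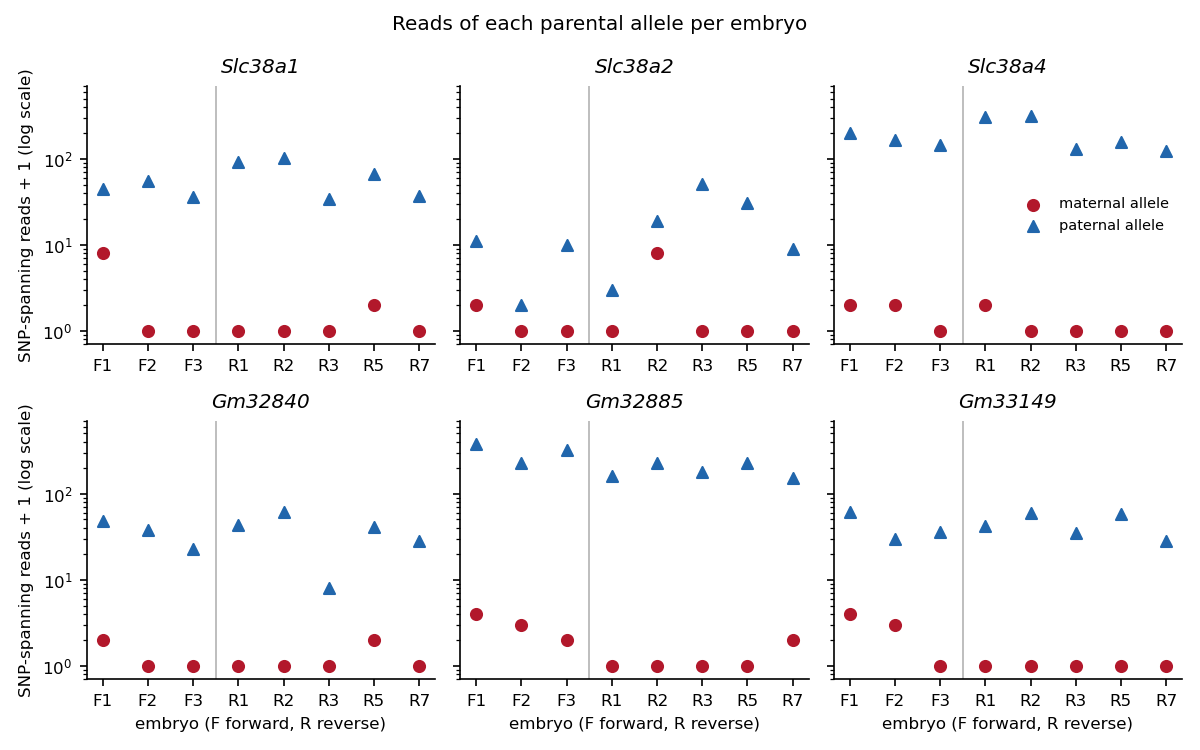
SNP-spanning reads plus 1, on a log scale, of the maternal (circles) and paternal (triangles) allele in each of the 3 forward (F) and 5 reverse (R) embryos, with a panel for each gene. The paternal allele lies above the maternal allele in all 8 embryos of every panel, and the allele gap is smallest for Slc38a2, with 7 maternal reads in reverse embryo 2.

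The paternal shares of these genes were equal, at 100%, in many embryos, which left little for a comparison between genes. Slc38a2 had at least 10 reads in too few embryos, and the remaining 5 genes gave 10 pairs, which were compared within embryos by an exact permutation test (two-sided sign changes, at least 10 reads in both genes). For each pair only 2 to 5 embryos had unequal shares, so that the smallest p possible was 0.0625 to 0.5 and the smallest adjusted p possible 0.208. The test could therefore pass for no pair and says nothing of whether the shares are alike. Slc38a1 minus Slc38a4 was -1.76 percentage points ± 4.78 (SD, n = 8), with Slc38a1 lower in 2 embryos, higher in 2 and equal in 4, and -0.0808 without forward embryo 1. On a log2 ratio scale with a pseudocount of 0.5, however, 6 of the 10 pairs passed. With 0 maternal reads this ratio rises with the number of reads of the gene, and each of the 6 pairs set Slc38a4 or Gm32885, the genes with the most reads, against a gene with fewer.

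The maternal reads were few in number and unevenly spread over the embryos. Slc38a1, Slc38a2, Slc38a4 and Gm32885, which do not overlap each other, had together 26 maternal and 3977 paternal reads. Of the maternal reads, 12 were in forward embryo 1, where they made up 1.87% (Clopper-Pearson interval 0.971% to 3.25%), and 7 were in reverse embryo 2, all of Slc38a2. The other 6 embryos had 0 to 3. Reads were also summed over a reference list of 10 other paternally expressed genes. These were Sfmbt2, Jade1, Kcnq1ot1, Peg3, Snrpn, Snurf, Mcts2, Fkbp6, Bbx and Epas1. Unlike the locus genes, this list was not limited to genes that do not overlap, and the study names Snurf and Snrpn together. Its maternal share was 5.70%, 4.99% and 1.78% in forward embryos 1, 2 and 3 and 0.167% to 0.891% in the reverse embryos, without overlap between the crosses. In forward embryo 1, which had the most macrophage marker reads, the share was thus highest both at the locus and over the reference list. Forward embryos 2 and 3 did not follow this order: their macrophage markers summed to 44.6 and 59.0 CPM, beside reference shares of 4.99% and 1.78%. In the forward cross the maternal allele is also the B6 allele, which the counts can favour. The part of carried-along maternal cells or of the B6 allele in the maternal reads was not tested. Without forward embryo 1, the same test called 5 of the 6 genes, as with it.

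**Figure D2:**
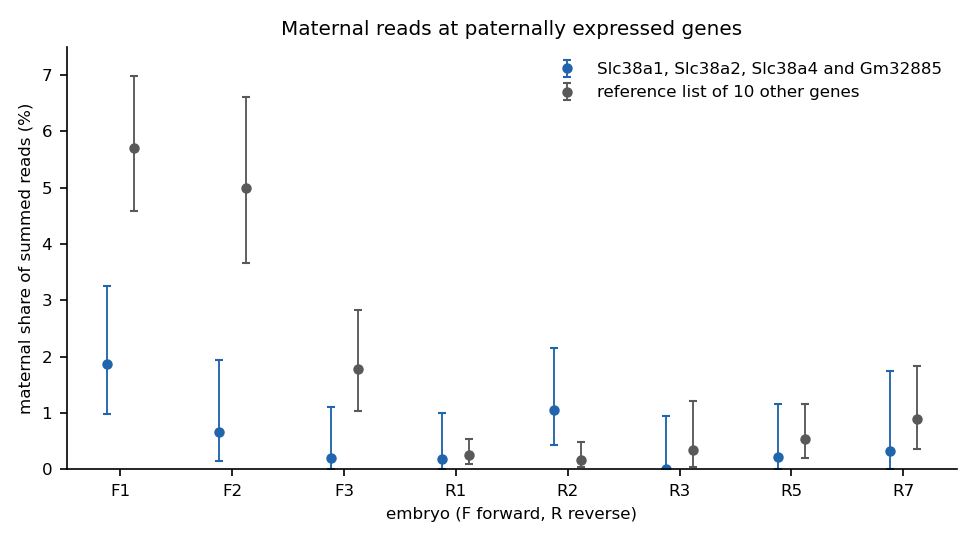
Maternal share of the summed reads, in percent, of Slc38a1, Slc38a2, Slc38a4 and Gm32885 (blue) and of the reference list of 10 other paternally expressed genes (grey) in each forward (F) and reverse (R) embryo. Bars are 95% Clopper-Pearson intervals. The reference list lies at 1.78% to 5.70% in the forward and below 1% in the reverse embryos, whereas the 4 genes exceed 1% only in forward embryo 1 (1.87%) and reverse embryo 2 (1.05%).

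The bias had the same direction whichever strain was the father. The strain term of the same fit compares cast with B6 alleles. Here 0 of the 6 genes were called, against 15.5% of all genes tested (edgeR adjusted p from 0.417 to 0.965, 0 of 6 at an unadjusted p under 0.05, 0 with DESeq2). At genes read almost only from the paternal allele, this term rests mainly on the paternal reads of both crosses and so follows their level. It therefore cannot decide whether the parental ratio of these genes differed between the crosses. The strain terms lay between -0.55 (SE 0.53) for Slc38a1 and 0.59 (SE 0.40) for Gm32885 on the log2 scale. With alleles paired within embryos the term does compare the parental ratios, and 1 of the 6 genes was called, against 3207 of the 12565 genes tested. That gene was Gm33149 (-1.68, edgeR adjusted p = 0.0983), toward the B6 allele. With this pairing the term was -0.69 for Gm32885 and -0.49 for Slc38a4, neither of them called. Few maternal reads stood behind the ratio of Gm33149. Its maternal reads were 5 of 129 in the forward cross, where the maternal allele is B6, and 0 of 217 in the reverse cross. None of the 6 genes passed the test of equal alleles within a log2 margin of 1 (edgeR adjusted p of 1 for each, 0 at an unadjusted p under 0.05), which 35.6% of all genes passed.

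**Figure D3:**
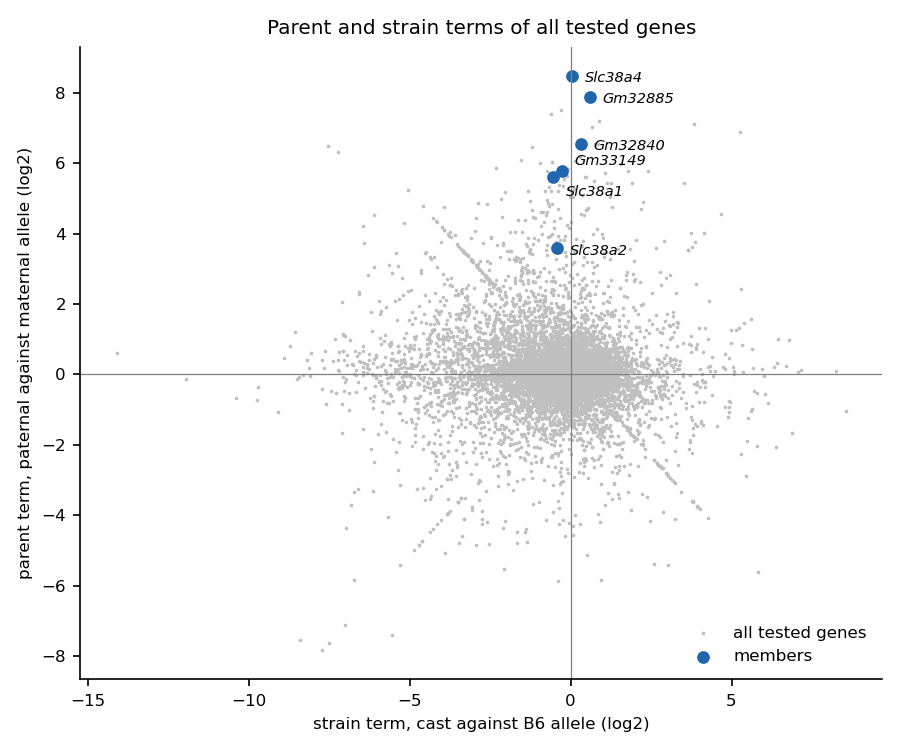
Strain term (cast against B6 allele, horizontal axis) and parent term (paternal against maternal allele, vertical axis) of the edgeR fit, both log2, for the 12565 autosomal genes tested (grey) and the 6 genes of the locus (blue). The 6 genes have strain terms between -0.55 and 0.59 and parent terms between 3.58 and 8.48, with Slc38a4 at the top of all genes.

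Levels were set by both alleles together, as CPM scaled with TMM factors (a correction for the make-up of each library) over the 8 embryos. Slc38a4 was at 120, 148 and 117 CPM in the forward embryos and at 185, 196, 108, 118 and 117 CPM in the reverse embryos. Reverse embryos 1 and 2 were highest, and the other 3 reverse embryos overlapped the forward embryos. Forward embryos averaged 128 CPM ± 17.0 (SD, n = 3) and reverse embryos 145 CPM ± 42.0 (SD, n = 5). This is a log2 difference of 0.18 (SE 0.32, edgeR adjusted p = 0.935).

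Gm32885 was at 234, 205 and 260 CPM in the forward embryos and at 94.2, 144, 150, 170 and 146 CPM in the reverse embryos. The crosses did not overlap, and every forward embryo was above every reverse embryo. Of all 13077 genes tested, 6.23% likewise had levels without overlap between the crosses, in either direction, beside 1 of the 6 genes here. The log2 difference of -0.72 (reverse against forward, SE 0.29) did not pass the adjustment over 13077 genes (unadjusted p = 0.0261, edgeR adjusted p = 0.587). Without reverse embryo 1, whose trophectoderm marker sum was the lowest, it was -0.61 (adjusted p = 0.261, and 0.261 to 0.999 over all alternatives). The active allele was cast in the forward and B6 in the reverse cross, so the strain of the mother, of the father and of the active allele cannot be told apart here.

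The other 4 genes overlapped between the crosses. Slc38a1 averaged 35.8 CPM ± 10.8 (SD, n = 3) after the forward and 46.2 CPM ± 14.7 (SD, n = 5) after the reverse mating. Slc38a2 varied most between embryos, from 0.892 to 7.37 CPM in the forward and from 1.20 to 41.9 CPM in the reverse cross, with means of 4.99 CPM ± 3.57 (SD, n = 3) and 17.9 CPM ± 15.7 (SD, n = 5), and its coefficient of variation over the 8 embryos was 105%. That of the other 5 genes was 21.3% to 38.6%. Its log2 difference of 1.79 (SE 0.92) did not pass the test (edgeR adjusted p = 0.704). Gm32840 was at 18.0 to 33.0 and 5.86 to 37.9 CPM and Gm33149 at 27.6 to 38.4 and 24.6 to 43.2 CPM in the forward and reverse embryos. In all, 0 of the 6 genes were called between the crosses, against 0.0688% of all genes tested (1 of 6 at an unadjusted p under 0.05, 0 with DESeq2).

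**Figure D4:**
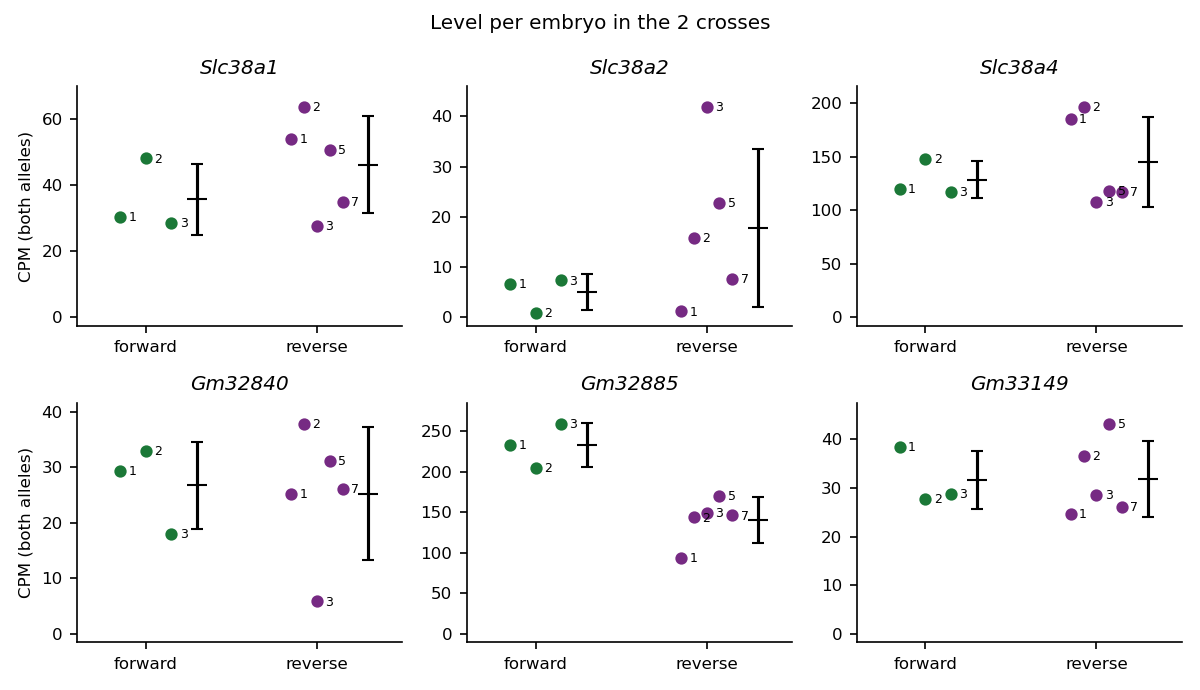
Level of each gene in CPM (both alleles summed) in the 3 forward (green) and 5 reverse (purple) embryos, with embryo numbers. The horizontal mark and bar are the mean and SD of each cross. The forward embryos lie above the reverse embryos without overlap at Gm32885 (205 to 260 against 94.2 to 170 CPM), while the crosses overlap at the other 5 genes.

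Slc38a4 and Slc38a1 tended to be high in the same embryos. Over the 8 embryos the log2 CPM of both correlated with a Pearson's r of 0.83 (exact permutation p = 0.0065, adjusted p = 0.0195 over 3 relations) and a Spearman's rho of 0.88 (exact permutation p = 0.00724, adjusted p = 0.0217). Without reverse embryos 1 and 2, which lie farthest from the median of Slc38a4, r was 0.64 (n = 6, exact permutation p = 0.242) and the relation no longer passed, so in that sense it rests on this pair of embryos. With any 1 embryo left out it passed (r from 0.74 to 0.97, n = 7, exact permutation p from 0.00198 to 0.0401, not adjusted). Within the 5 reverse embryos r was 0.83, and the 3 forward embryos are too few for a value. Of 13076 other genes, 1.02% had a higher r with Slc38a4 than Slc38a1 had. The 5 most alike were Gm38972 (r = 0.996), Gm32666 (0.973), Gm3704 (0.968), Snx21 (0.968) and Osbpl11 (0.955), none of them on chromosome 15. Gm32666 and Gm3704 had only 20 and 35 reads over all embryos, and the others 198 to 584. Values over 8 embryos are given here as a description, since these genes were picked for the highest r.

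The levels of Slc38a4 and Gm32885 gave no relation that passed the test. Their r was -0.54 (exact permutation p = 0.201) and their rho -0.45 (exact permutation p = 0.267), and r became 0.33 without reverse embryos 1 and 2. For Slc38a4 and Slc38a2 r was -0.45 (exact permutation p = 0.237) and rho -0.48 (exact permutation p = 0.243), and without these 2 embryos r was -0.88 (exact permutation p = 0.0389, not adjusted). The adjusted p of both relations was 0.237 for r. Gm32885 had 1.94, 1.39 and 2.22 reads for each Slc38a4 read in the forward embryos and 0.510, 0.733, 1.39, 1.44 and 1.25 in the reverse embryos (two-sided exact permutation test of the log2 ratios, p = 0.107). Gm33149 had 0.164, 0.135 and 0.110 reads for each Gm32885 read in the forward embryos and 0.261, 0.254, 0.190, 0.253 and 0.179 in the reverse embryos. The latter ranges did not overlap (exact permutation p = 0.0357, the smallest this design allows, adjusted p = 0.143 over 4 such ratios, which were chosen after their values were seen).

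On either side the 6 genes were flanked, at some distance, by well-covered genes read from both alleles. The region reaching 1 Mb to either side of the 6 genes held 38 further genes, of which 24 were tested. In this region 2 of the 24 were called paternal and 0 maternal (7 and 2 at an unadjusted p under 0.05, 3 and 0 with DESeq2), 6 passed the test of equal alleles and 5 were called for strain. Over all genes tested, 1.11% were called paternal, 0.318% maternal and 15.5% for strain, and 35.6% passed the test of equal alleles. The neighbours called paternal are the lncRNA genes Gm33205 (97187415 to 97203772, minus strand) and Gm33253 (97183012 to 97190538, plus strand), which lie just beyond Gm33149 and overlap each other. Gm33205 had 0 maternal reads, and its paternal reads were 10, 15 and 12 in the forward and 0, 17, 2, 23 and 4 in the reverse embryos. Against the floor of 3 maternal counts over all embryos, its paternal allele was at least 27.7-fold higher (edgeR adjusted p = 0.00817). Gm33253, the tested gene nearest to Gm33149, had 0 maternal and 42 paternal reads, from 6 embryos, or at least 14.0-fold more (adjusted p = 0.0831). Its call was lost when any 1 embryo was left out (adjusted p from 0.101 to 0.424), when alleles were paired within embryos (adjusted p = 0.146) and without the strain term (adjusted p = 0.104). It held with DESeq2 (adjusted p = 0.0537), RLE factors (0.0787), 1 library size per embryo (0.0804) and no filter (0.0023), and its log2 fold change was 4.55 to 5.91 over all of these.

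On the other side, Scaf11, an SR-related splicing factor gene and the tested gene nearest to Slc38a1, had 515 maternal and 504 paternal reads. Paternal reads made up 46.3% ± 6.79 (SD, n = 3) of its reads with a cast father and 52.9% ± 8.21 (SD, n = 5) with a B6 father, and its alleles passed the test of equality (edgeR adjusted p = 0.0166). Between it and Slc38a1 only 2 genes with few reads were listed, Gm41392 and Gm32406, and neither was tested. Between Slc38a2 and Slc38a4, the lncRNA gene Gm32677 had 7 maternal and 81 paternal reads and did not pass the test (log2 fold change 3.35, adjusted p = 0.119), but did when alleles were paired within embryos (4.13, adjusted p = 0.0228). Its 7 maternal reads were all in the forward embryos, as 3, 2 and 2. Gm32789, inside the span of Gm32840, and Gm32733, which overlaps its end, had 0 maternal reads each and 19 and 17 paternal reads. Neither passed the test (adjusted p = 0.491 and 0.507). These 3 genes, and Amigo2 and Tmem106c below, were singled out after their values were seen.

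Beyond Gm33205, Amigo2 had 0 maternal and 11 paternal reads and was not tested. Pced1b had 90 maternal and 80 paternal reads in the forward cross but 29 maternal and 240 paternal reads in the reverse cross. Its B6 allele thus gave more reads in the sum of both crosses, and it was called for strain (-1.23, SE 0.44, edgeR adjusted p = 0.0784). It did not pass the parent test (1.33, SE 0.44, adjusted p = 0.264) but passed when each embryo had a term of its own (1.47, adjusted p = 0.0295) and with no filter on low counts (1.32, adjusted p = 0.0848). The lncRNA gene Gm41393 followed, with 45 maternal and 1 paternal reads in the forward and 0 and 100 in the reverse cross, and was called for strain toward B6 (-5.78, adjusted p = 1.32e-05). Rpap3, 650 kb from the start of Slc38a4, was the first gene beyond it to pass the test of equal alleles (423 maternal and 587 paternal reads, adjusted p = 0.022). Its B6 allele gave more reads in both crosses, however: the paternal share was 38.2% ± 2.88 (SD, n = 3) with a cast father and 69.6% ± 5.88 (SD, n = 5) with a B6 father, and the strain term of -0.61 did not pass (adjusted p = 0.108). Farther out, Tmem106c leaned to the paternal allele (3 maternal and 36 paternal reads) without passing the test (adjusted p = 0.375).

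**Figure D5:**
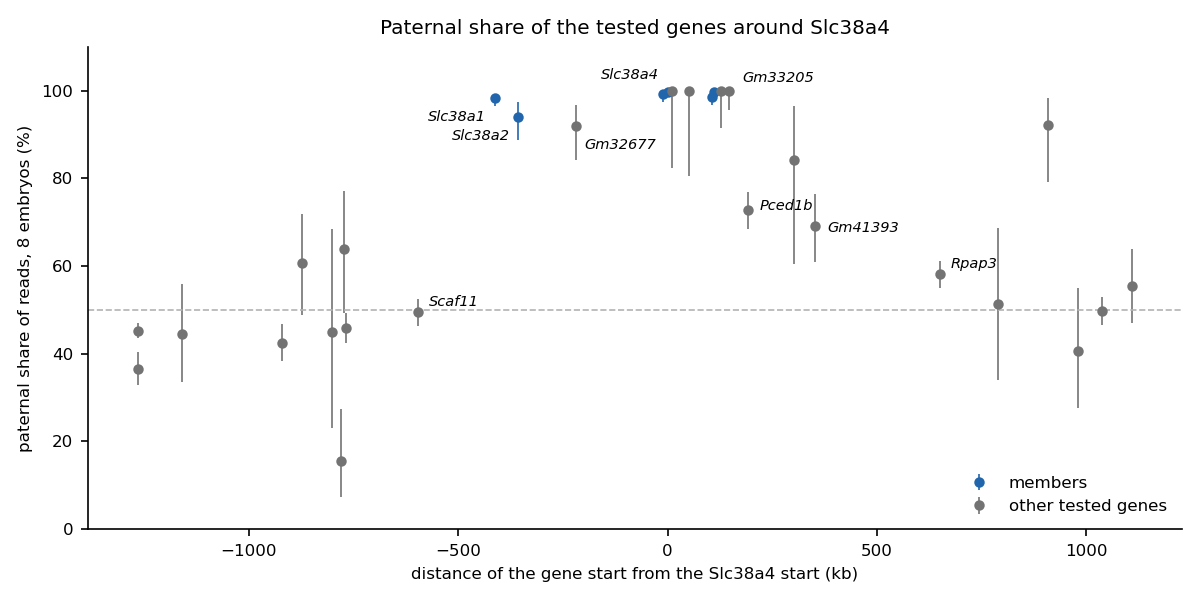
Paternal share, in percent, of the reads of each tested gene (8 embryos summed) against the distance of its start from the start of Slc38a4 in kb, with 95% Clopper-Pearson intervals. The 6 genes (blue) lie between 94.1% and 99.8%, whereas Scaf11 on one side lies at 49.5% and Rpap3 on the other at 58.1%, with the dashed line at 50%. The sum hides that the share of Rpap3 was 38.2% with a cast and 69.6% with a B6 father.

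Elsewhere in the genome, the other transporters of the family were read from both parental alleles or differed by strain. Of the 11 genes of the Slc38 family, 9 were in the table and all 9 were tested. The 2 called paternal were Slc38a1 and Slc38a4, and with paired alleles Slc38a2 was called too, while 0 were called maternal (0 at an unadjusted p under 0.05, 0 with DESeq2). Over all genes tested, 1.11% were called paternal (2.08% with paired alleles) and 0.318% maternal. The median log2 fold change of the 9 genes, which include Slc38a1, Slc38a2 and Slc38a4, was 0.24, against -0.01 over all genes. Outside the locus the family's values ran from -0.14 (Slc38a7) to 0.77 (Slc38a8). Slc38a7, Slc38a9, a sensor of lysosomal amino acids, and Slc38a10 passed the test of equal alleles (edgeR adjusted p = 0.0356, 0.0751 and 0.0508). Slc38a8 (74 B6 and 4 cast reads) and Slc38a11 (79 B6 and 1 cast reads) were called for strain toward B6 (-3.39 with adjusted p = 0.0443, and -4.96 with adjusted p = 0.0041). Of all genes tested, 35.6% passed the test of equal alleles and 15.5% were called for strain.

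Of a list of 37 amino acid transporters of other families, 33 were in the table and 19 were tested. Here 0 were called paternal (1 at an unadjusted p under 0.05, 0 with DESeq2) and 1 maternal, Slc6a15, a carrier of branched-chain amino acids and proline. It had 65 maternal and 2 paternal reads (log2 fold change -4.59, edgeR adjusted p = 0.0324), the opposite direction to the locus, with its 2 paternal reads both in reverse embryo 2. With paired alleles Slc7a8 was also called, toward the paternal allele (adjusted p = 0.0101). The median log2 fold change of the 19 genes was 0.04. Slc1a3, Slc7a5 and Slc7a7 were called for strain (1.35, -1.64 and 1.34, adjusted p = 0.0415, 0.00893 and 0.0907), and 5 of the 19 passed the test of equal alleles. The shares over all genes tested were 1.11% called paternal, 0.318% maternal, 15.5% for strain and 35.6% with equal alleles.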

How the data were processed

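Single blastocysts of reciprocal crosses were sequenced with SMART-Seq2 on polyA RNA. The deposited values are raw counts, for each gene and strain allele of an embryo, of reads over SNPs. By the methods and the submitters' processing notes, the authors aligned reads to mm10 with STAR (2.5.2b in the notes, while the methods name another version), excluded reads with several locations, kept reads over annotated SNPs with an intermediate step of Allelome.Pro (SAMtools 1.9-92, bedtools), removed samples with few reads and did not normalize the counts. These counts can favour the reference (B6) allele.

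Maternal and paternal reads were assigned from the cross of each embryo. Genes were placed by symbol with GENCODE M21 (18286 genes), RefSeq for GRCm38.p6 (2999) or a synonym (412), and 1113 without a position, with 0.816% of the reads, and X-linked genes were left out. The test of parental alleles used edgeR 4.0.16 with limma 3.58.1 in R 4.3.3, TMM factors of the 16 allele libraries, strain and parent as terms and genes with at least 10 reads in at least 1 library. The edgeR test was used in place of the study's DESeq2 (1.42.0), which was an alternative. Equal alleles were tested with a pair of one-sided tests against a log2 margin of 1. Levels between crosses were tested on summed reads. Exact tests and Clopper-Pearson intervals used scipy 1.17.1. Log2 CPM had a prior count of 2. The neighbours are all genes within 1 Mb of the 6 genes, with values for those called in a test and the nearest tested ones. The members, gene lists and tests were chosen with earlier results of these data known.

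The alleles of each embryo are paired by origin, and their deviations from the group means correlated with r of 0.0823 to 0.132 in the forward and 0.145 to 0.488 in the reverse embryos. On simulated counts of 11446 genes, 200 of them changed between parents, edgeR found 95.5% with 9.05% of its 210 calls false, and with a term for each embryo 93.5% with 6.50% of 200 calls false. For levels between crosses (11820 genes) it found 90.0% with 7.69% of 195 calls false. DESeq2 found 96.0% with 18.6% of 236 calls false between parents and 93.5% with 24.3% of 247 calls false between crosses. The simulated libraries were drawn independently, without strain bias and without the pairing of alleles in an embryo. Changes were large and placed in genes with higher mean counts. These rates, and the difference between the fits with and without embryo terms, may therefore not hold for the real counts.

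Alternatives were DESeq2, RLE factors, 1 library size per embryo, other filters, no strain term, a term for each embryo, a narrower margin, other read minimums and scales, and leaving out each embryo in turn.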

Additional observations from a re-analysis of the deposited data

Results flagged for a closer look

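In the reverse cross, 11 sets of 5 values (paternal share or level of a gene) were checked for a sample far from the others, by Dixon's 95% criterion, which chance passes in about 1 of 20 sets, and 5 passed. All 5 were paternal shares in which 1 embryo was below 100% and the other 4 at 100%, so that any departure passes, however small. They were Slc38a2 in reverse embryo 2 (72.0%, from 7 maternal reads), Slc38a1 in reverse embryo 5 (98.5%), Slc38a4 in reverse embryo 1 (99.7%), Gm32840 in reverse embryo 5 (97.6%) and Gm32885 in reverse embryo 7 (99.3%). The last 4 rest on 1 maternal read each.

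For 5 neighbours the strain term of the edgeR fit, which compares cast with B6 alleles, was called. The terms were 3.16 for Gm41389 (adjusted p = 0.0245) and 1.21 for Gm38469 (adjusted p = 0.0484), both toward the cast allele. They were -1.23 for Pced1b (adjusted p = 0.0784), -5.78 for Gm41393 (adjusted p = 1.32e-05) and -5.85 for Gm41395 (adjusted p = 0.00458), all toward the B6 allele.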

How the results depend on the processing

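The parental calls of Slc38a1, Slc38a4, Gm32885, Gm33149 and Gm32840 held under each alternative that tested them. With at least 10 reads in every embryo, Slc38a2 and Gm32840 were not tested and the other 4 genes were called. Leaving out 1 embryo kept 5 or 6 of the 6 genes called. Slc38a2 passed with DESeq2 (3.90), no filter (3.57), a term for each embryo (4.20) and no strain term (3.79), and without reverse embryo 1 or 2, where its log2 fold change over all such fits was 3.20 to 5.76. Genes called paternal, 139 by the test as used, were 276 with no filter, 67 with 10 reads in every embryo and 261 with the embryo block. Genes called maternal, 40 by the test as used, were 65 with DESeq2, 130, 8 and 128 in the same order, and 17 to 57 with 1 embryo left out. Genes called for strain, 1945 by the test as used, were 1068 with 10 reads in every embryo, 3207 with the embryo block and 1206 to 2453 with 1 embryo left out. With the embryo block 1 of the 6 genes was called for strain, Gm33149 (-1.68). Strain terms that changed sign with this block were Slc38a2 (0.0447), Slc38a4 (-0.49) and Gm32885 (-0.69), and with 1 library size per embryo Slc38a4 (-0.27). With 1 embryo left out the strain terms ranged from -0.98 to 0.14 for Slc38a1, -1.57 to 0.18 for Slc38a2 and -0.031 to 0.20 for Slc38a4.

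Genes called between the crosses, 9 by the test as used, were 136 with DESeq2, 143 with no filter, 21 with the embryo number as a replicate block, and 3 to 160 with 1 embryo left out (160 without reverse embryo 1). The level difference of Gm33149 was -0.0033 with no filter, -0.0861 with the block and -0.13 to 0.17 with 1 embryo left out, and that of Gm32840 was -0.29 to 0.17. Embryos with the same number come from opposite crosses, and no pairing between them is given. The correlations of deviations of same-numbered embryos were 0.126, 0.00163 and 0.103. Such values cannot decide the point, since the alleles of a single forward embryo correlated at only 0.0823 to 0.132. No call of the 6 genes between the crosses changed with this block. Genes with equal alleles, 4477 by the test as used, were 0 with the margin of 1.5-fold and 1615 to 5659 with 1 embryo left out, and Scaf11 and Rpap3 were then not called with that margin (adjusted p = 0.486 for both). The parental fold change of Scaf11 was -0.13 to 0.0552 with 1 embryo left out.

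On the log2 ratio scale, differences in paternal bias passed for Slc38a1 minus Slc38a4 (-1.85), Slc38a1 minus Gm32885 (-1.72), Slc38a4 minus Gm32840 (2.08), Slc38a4 minus Gm33149 (2.17), Gm32840 minus Gm32885 (-1.86) and Gm32885 minus Gm33149 (2.04), and turned for Slc38a1 minus Gm32840 (0.24) and minus Gm33149 (0.32). With 1 embryo left out, the difference in percentage points was -2.09 to -0.0808 for Slc38a1 minus Slc38a4, -1.99 to 0.16 for Slc38a1 minus Gm32840, -1.96 to 0.0507 for Slc38a1 minus Gm32885, -1.53 to 0.71 for Slc38a1 minus Gm33149 and -0.46 to 0.0912 for Gm32840 minus Gm32885. Without the 2 embryos farthest from the median of Slc38a4, r was 0.33 with Gm32885, 0.64 with Slc38a1 and -0.88 with Slc38a2, and with 1 embryo left out it was -0.82 to -0.24 with Slc38a2. The cause of these changes was not tested. Read numbers of 136 (Slc38a2) to 1870 (Gm32885) over 8 embryos limit how small a maternal share can be seen.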
